A study of Mus musculus with 6 samples.

Results

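Immediate early genes are the genes a cell transcribes first after a stimulus, without making new protein beforehand. Growth factors, stretch, cytokines and handling of tissue all act on them through MAP kinases and calcium, which activate factors already bound at their promoters, such as SRF with its ETS partners and CREB. Their transcripts are short-lived, and many of the proteins are transcription factors that switch on a later set of genes or inhibitors that end the response. In the mammary gland they are known from growth factor and hormone responses, and also as transcripts that come up during enzymatic dissociation and sorting.

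The set examined here holds 10 genes out of the 34590 gene symbols in the deposited count table: the AP-1 subunits Fos, Fosb, Jun and Junb, the related bZIP factor Atf3, the zinc finger factor Egr1, the nuclear receptor Nr4a1, the nuclear protein Ier2, the MAP kinase phosphatase Dusp1 and the mRNA decay factor Zfp36. The members were chosen by symbol as known immediate early genes, with counts of these 6 glands already in view. Their differences between genotypes and between hosts are therefore given as descriptions, with no p-value for a member, and where members past a threshold are counted, the count describes the set and is no test of it. All 10 passed edgeR's filter on low counts.

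The study removed the endogenous epithelium from both inguinal glands of WT female mice and engrafted mammary epithelium from WT.EGFP+ donors on the left side and from Adamts18-/-.EGFP+ donors on the right side, to ask what epithelial loss of this secreted protease changes. The Adamts18-/- allele lacks the exons for the Zn-binding catalytic site and is deleted in every donor cell, EGFP is driven by a chicken β-actin promoter in donors of both genotypes, and the mutant and EGFP lines were kept on a C57BL/6JOlaHsd background. RNA was sequenced from 3 pairs of contralateral glands, numbered here as hosts 1 to 3, with 1 WT and 1 Adamts18-/- gland in each. The labels give no age and no treatment for these glands, and the legend of the study speaks of a separate experiment and donor for each pair, so host, donor and experiment cannot be told apart, nor can genotype and body side.

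The libraries held 53875123 to 71595924 counted reads. The targeted gene Adamts18 was at 3.61, 9.92 and 6.80 CPM in the WT glands of hosts 1, 2 and 3 against 2.75, 4.87 and 3.29 CPM in the Adamts18-/- glands, where CPM is the read count per library of a standard size, TMM-scaled. It was lower in the mutant gland of each host, and the count covers the gene as a whole, with the retained exons and any host stroma. The labels name sorted GFP+ epithelial cells, but markers of other cell types were abundant in all 6 libraries. Summed over its markers, the adipocyte list reached 7782 to 19228 CPM and the fibroblast list 9050 to 12447 CPM, above the 1357 to 2667 CPM of 25 pan-epithelial genes. The libraries are therefore called glands. In such mixed RNA, fewer cells of a type and less RNA per cell cannot be told apart.

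Promoter sequences of 8 of the 10 genes were matched in RefSeq (GRCm38.p6), and those of Egr1 and Ier2 were not. In the 250 bases before the start site, both strands were searched for the CArG box bound by SRF, the CRE palindrome TGACGTCA bound by CREB and ATF proteins, its half-site TGACG, the AP-1 site TGANTCA and the EGR site GCGNGGGCG. The half-site, which also lies inside the palindrome, was present in 6 of the 8 promoters (Fos, Fosb, Junb, Atf3, Nr4a1 and Dusp1), and in 17.8% of all 32851 promoters searched. The EGR site was present in 3 (Fosb, Nr4a1 and Zfp36), against 4.70% of all promoters. The CArG box was found in that of Zfp36 alone (1.47% of all), the CRE palindrome in that of Dusp1 alone (1.55% of all) and the AP-1 site in 0 of the 8 (6.75% of all). The stretches below are a selection from the 8 promoters, with Dusp1 and Zfp36 shown for their CRE and CArG matches. Capitals mark the matches. Those of Fos (chr12:85473740-85473889, plus strand), Fosb (chr7:19310056-19310195, minus strand) and Nr4a1 (chr15:101266696-101266845, plus strand) lie just upstream of the RefSeq start site, outside any annotated exon. They carry half-sites and, in Fosb and Nr4a1, an EGR site. For Dusp1 (chr17:26508597-26508626, minus strand) and Zfp36 (chr7:28379267-28379296, minus strand) 30 bases around the CRE and the CArG box are shown, the latter within an annotated Zfp36 exon. The stretches of Nr4a1, Dusp1 and Zfp36 lie inside the gene spans given below, which begin farther upstream.
Fos: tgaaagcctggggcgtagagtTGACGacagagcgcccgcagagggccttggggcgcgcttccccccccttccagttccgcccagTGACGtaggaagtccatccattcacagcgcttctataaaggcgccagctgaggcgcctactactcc
Fosb: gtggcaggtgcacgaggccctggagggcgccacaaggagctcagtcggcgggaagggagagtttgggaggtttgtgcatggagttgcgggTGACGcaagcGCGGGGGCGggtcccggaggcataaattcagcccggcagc
Nr4a1: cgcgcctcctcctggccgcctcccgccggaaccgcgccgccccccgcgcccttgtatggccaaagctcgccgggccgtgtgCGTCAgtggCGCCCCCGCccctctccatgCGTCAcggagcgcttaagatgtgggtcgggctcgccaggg
Dusp1: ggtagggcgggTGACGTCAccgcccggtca
Zfp36: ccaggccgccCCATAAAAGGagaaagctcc
These matches describe letters in the windows only. Bases outside the windows were not searched, so a motif missing there may still lie elsewhere near the gene.

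All 10 genes had their highest level in the Adamts18-/- gland of host 1, which was the highest gland for 11.8% of the 17345 genes tested. All 10 also had both glands of host 3 below the other 4 glands, a pattern seen in 24.1% of genes. Between the genotypes, each of the 10 was higher in the Adamts18-/- gland than in the contralateral WT gland of hosts 1 and 2, against 23.9% of genes, and in host 3, 5 of the 10 were, against 49.2% of genes. Summed over the members, the level was 1578 CPM in the WT gland and 2769 CPM in the Adamts18-/- gland of host 1, 976 and 1888 CPM in host 2, and 534 and 525 CPM in host 3, which is 1.75-fold, 1.93-fold and 0.984-fold. The 3 WT and the 3 Adamts18-/- glands overlapped for all 10 members (0 of 10 separated), where 4.94% of all genes were separated.

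**Figure D1:**
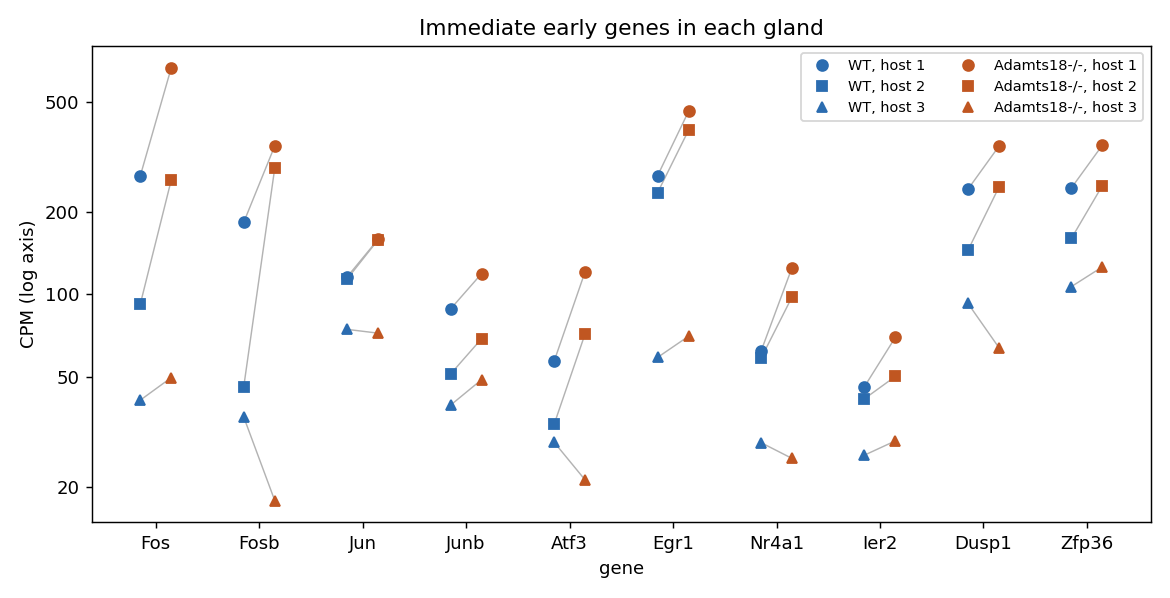
CPM (log axis) of the 10 immediate early genes in the 6 glands, blue for WT and orange for Adamts18-/-, with a marker shape for each host and a grey line joining contralateral glands. The triangles of host 3 lie below the other glands for all 10 genes, and the orange circle of host 1 is the highest point for each.

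Fos, the AP-1 subunit that pairs with Jun proteins (chromosome 12, 85473890 to 85477273 in the GENCODE M21 annotation of GRCm38), was at 270, 92.2 and 41.2 CPM in the WT glands of hosts 1, 2 and 3 and at 669, 261 and 49.8 CPM in their Adamts18-/- glands. It was thus higher in the mutant gland of each host, while the host 1 WT gland exceeded the mutant glands of hosts 2 and 3. The group means were 134 ± 120 and 327 ± 315 CPM (SD, n = 3 each), and the fitted log2 fold change of Adamts18-/- over WT was 1.03 (standard error 0.27), the largest among the members. By host the log2 difference was 1.31, 1.5 and 0.27.

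Fosb, a close relative of Fos (chromosome 7, 19302696 to 19310051), was at 183, 46.1 and 35.8 CPM in WT glands and at 347, 288 and 17.8 CPM in Adamts18-/- glands of hosts 1, 2 and 3. The largest single difference among all members and hosts was here, 6.25-fold in host 2, yet in host 3 the mutant gland was at 0.497 of the WT level. The fitted log2 fold change was 0.87 with a standard error of 0.75, and the differences by host, 0.92, 2.64 and -1.01 in hosts 1, 2 and 3, spread over a wider range than the fitted value. Without host 2 it was -0.033.

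The Jun proteins moved within narrower limits. Jun (chromosome 4, 95049034 to 95052222), which forms dimers with itself or with Fos proteins, was at 116, 114 and 74.6 CPM in WT glands and at 159, 158 and 72.3 CPM in Adamts18-/- glands. Hosts 1 and 2 were nearly alike in both genotypes, with log2 differences of 0.45 and 0.47, and host 3 showed -0.046. Junb (chromosome 8, 84974484 to 84978718), often a weaker activator than Jun, was at 88.6, 51.4 and 39.6 CPM in WT glands and 119, 69.1 and 49.0 CPM in Adamts18-/- glands. Its log2 difference of 0.43, 0.43 and 0.31 in hosts 1, 2 and 3 varied least of all members, and the fitted value was 0.39 (standard error 0.067), against 0.30 (standard error 0.13) for Jun.

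Atf3, a stress-induced bZIP factor of the ATF/CREB family (chromosome 1, 191170296 to 191218039), was at 57.1, 33.6 and 29 CPM in WT glands and 121, 72 and 21.1 CPM in Adamts18-/- glands. It was 2.12-fold and 2.14-fold higher in the mutant glands of hosts 1 and 2 and at 0.729 of the WT level in host 3. Its fitted log2 fold change was 0.59 (standard error 0.35).

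Egr1, a zinc finger factor and a classical target of SRF with ETS factors (chromosome 18, 34859823 to 34864984), was at 270, 234 and 59 CPM in WT glands and at 464, 396 and 70.5 CPM in Adamts18-/- glands. Both genotypes were far lower in host 3, and the WT gland of host 1 was 4.58-fold above that of host 3, but the mutant gland was higher within each host (log2 differences of 0.78, 0.76 and 0.26, fitted value 0.60, standard error 0.14). Nr4a1, an orphan nuclear receptor induced by calcium and cAMP signals (chromosome 15, 101254269 to 101274795), was at 62.1, 58.5 and 28.9 CPM in WT glands and at 125, 97.9 and 25.3 CPM in Adamts18-/- glands. Its log2 differences were 1.01, 0.74 and -0.19, with a fitted value of 0.53 (standard error 0.25). Ier2, a nuclear protein induced by growth factors (chromosome 8, 84661331 to 84662852), was at 46.2, 41.7 and 26.0 CPM in WT glands and at 69.9, 50.4 and 29.3 CPM in Adamts18-/- glands. The log2 difference was positive in each host, at 0.60, 0.27 and 0.17 in hosts 1, 2 and 3, and the fitted value was 0.35 (standard error 0.11).

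The inhibitors of the response did not share a pattern in host 3. Dusp1, which dephosphorylates MAP kinases (chromosome 17, 26505590 to 26562128), was at 241, 144 and 92.8 CPM in WT glands and at 346, 246 and 64.0 CPM in Adamts18-/- glands. It was higher in the mutant glands of hosts 1 and 2 and lower in host 3, with a fitted log2 fold change of 0.26 (standard error 0.27). Zfp36, which promotes decay of AU-rich mRNAs (chromosome 7, 28376784 to 28380253), was at 244, 160 and 107 CPM in WT glands and at 349, 249 and 126 CPM in Adamts18-/- glands, with log2 differences of 0.52, 0.64 and 0.24 and a fitted value of 0.47 (standard error 0.11). Exons of Jun, Junb, Dusp1 and Zfp36 overlap those of Junos, Prdx2, Ergic1 and Gm44710 on the other strand. The strand setting of the counting is not given in the sources used here, so reads in these overlaps cannot be assigned.

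**Figure D2:**
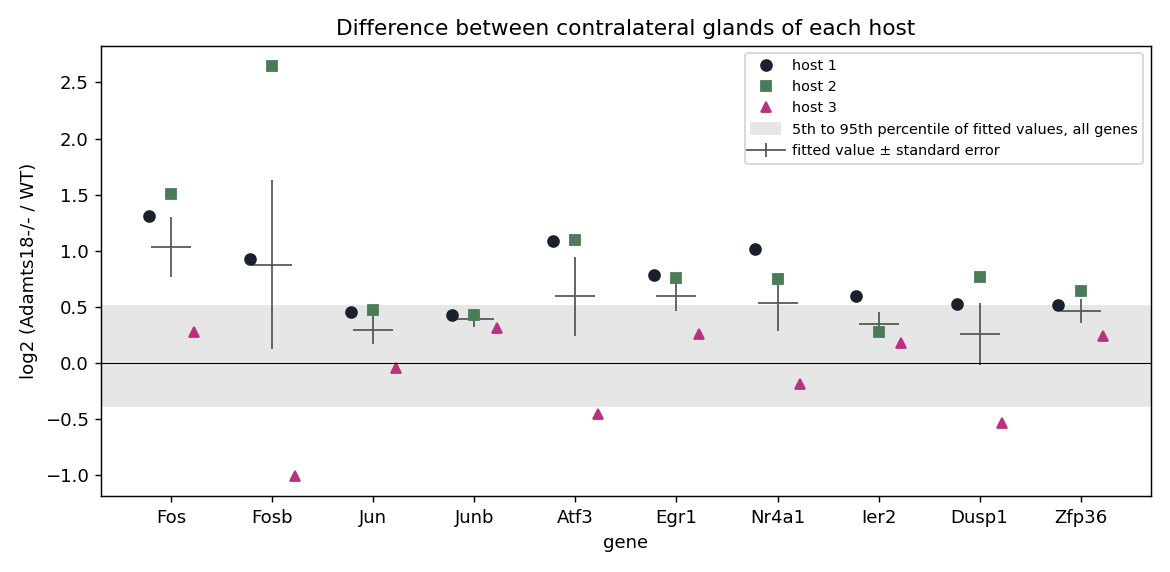
Difference between the Adamts18-/- and the WT gland on the log2 scale in each host (circle host 1, square host 2, triangle host 3), with the fitted value and its standard error, and a grey band from the 5th to the 95th percentile of the fitted values of all genes. Hosts 1 and 2 are above 0 for all 10 genes, and host 3 is below 0 for Fosb, Jun, Atf3, Nr4a1 and Dusp1.

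Fos, Junb, Egr1, Ier2 and Zfp36, the 5 members that were higher in the mutant gland of all 3 hosts (10.8% of all genes were), were also the 5 past the thresholds of the study, a log2 fold change over 0.32 (or under -0.32) with an unadjusted p under 0.05, where 1.17% of all genes were called. No member (0 of 10) was past the lower thresholds (1.84% of all genes). Because the members were chosen with these values in view, nothing is read from these counts. The median fitted log2 fold change was 0.50 for the members, ranging from 0.26 for Dusp1 to 1.03 for Fos, and 6.5e-04 for all genes, of which 5.11% lay above the median of the members. By adjusted p no gene of the table was called (0 of 17345 in edgeR after Benjamini-Hochberg adjustment, and 670 at an unadjusted p under 0.05). DESeq2 called 71 by adjusted p, and edgeR called 268 without host 3 and 354 with pan-epithelial scaling.

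The number of members past the thresholds depended on the hosts: Junb alone (1) without host 1, Junb, Egr1 and Zfp36 (3) without host 2, all 10 without host 3, and 0 when the host was not used as a block. In the same order, the genes called higher over the whole table were 182 of 17596, 319 of 17507, 581 of 17383 and 218 of 17345. Scaling the libraries to the pan-epithelial genes moved the median of all genes by 0.43. With it 9 members were past the thresholds, beside 1964 of 17345 genes called higher. The median of the members relative to all genes was then 0.49. By host the median log2 difference of the members was 0.69, 0.75 and 0.063 in hosts 1, 2 and 3, against -0.0098, -0.0052 and -0.0052 for all genes.

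The hosts took a larger share of the spread than the genotype. They also have more degrees of freedom, so these shares are not directly comparable. Of the variance of log2 CPM over the 6 glands, the host took 70.4% (Atf3) to 92.2% (Egr1) for the members, with a median of 83.1% against 67.3% for all genes. The genotype took 2.15% (Dusp1) to 15% (Zfp36), with a median of 10.9% against 5.98% for all genes. The rest was 0.268% for Junb and 21.1% for Fosb. The members varied widely for genes of this table: the distance from the lowest to the highest gland had a median of 2.37 on the log2 scale, against 0.62 for all genes, and 6 of the 10 were in the top 10% of genes by this measure.

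The ratio of host 1 to host 3 differed in size between the genotypes for most members. In WT glands it ran from 1.55-fold for Jun to 6.54-fold for Fos, with a median of 2.26-fold. In Adamts18-/- glands it ran from 2.20-fold for Jun to 19.5-fold for Fosb, with a median of 5.18-fold. For hosts 2 and 3 the medians were 1.54-fold in WT and 3.62-fold in Adamts18-/- glands. Over all genes the median of the 4 ratios was within 0.01 of no difference. Over the whole table, 0.628% of genes had an adjusted p under 0.05 in an edgeR F test over the 3 hosts with the genotype in the design. No such test is given for the members, which were chosen with their host differences in view.

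Per kilobase of annotated exon and averaged over the 6 glands, Fos was the most abundant member (98.0 CPM per kb, with 2.40% of 15441 genes above it). It was followed by Zfp36 (59.3), Dusp1 (57.1) and Egr1 (55.5), whose means lay closer together than the spread between glands, then Jun (36.3), Junb (30.2), Ier2 (28.9), Atf3 (25.8), Fosb (24.5) and Nr4a1 (18.9). The order is one of means, and it was not kept in every gland. In host 3, Zfp36 had the highest level per kb of the 10 members in both glands (30.8 in WT and 36.3 in Adamts18-/-), above Fos at 17.5 and 21.2.

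The make-up of the AP-1 transcripts differed accordingly. AP-1 is a dimer, in which a Fos protein needs a Jun partner whereas Jun proteins can pair with each other. Summed over Fos, Fosb, Fosl1, Fosl2, Jun, Junb and Jund per kb, AP-1 subunits reached 316, 178 and 118 CPM per kb in WT glands of hosts 1, 2 and 3 and 525, 318 and 115 CPM per kb in Adamts18-/- glands. Fos and Fosb together made up 45.6%, 26.2% and 19.8% of this sum in the WT glands and 64.7%, 49.5% and 20.9% in the Adamts18-/- glands. They held the larger share in the mutant gland of each host, by a wide margin in hosts 1 and 2 and by about 1 percentage point in host 3. With Fosl1 and Fosl2 included, the Fos family made up 50.6%, 33.5% and 27.5% in WT and 67.7%, 55.2% and 27.2% in Adamts18-/- glands, so in host 3 it was slightly lower in the mutant gland. Jund, which is not among the members, ran from 39.8 to 81.2 CPM per kb over the glands. It was the most abundant subunit per kb in both glands of host 3 (44.8 and 39.8 CPM per kb) and in the WT gland of host 2 (60.1), and Fos was the most abundant in the other 3 glands.

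**Figure D3:**
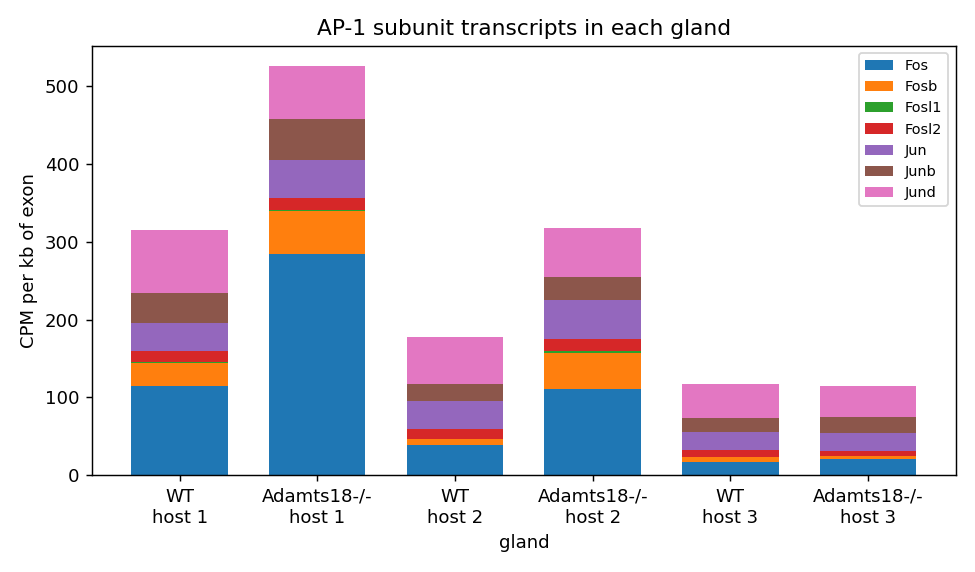
Stacked CPM per kb of exon for the 7 AP-1 subunit genes in each gland, WT and Adamts18-/- glands of a host side by side. The Fos segment is 284 CPM per kb in the Adamts18-/- gland of host 1 and 17.5 in the WT gland of host 3. The Jund segment runs from 39.8 in the Adamts18-/- gland of host 3 to 81.2 in the WT gland of host 1.

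The level of each member followed that of the other 9 over the glands, with Pearson's r between 0.906 (Junb) and 0.986 (Fos) over 6 glands. The glands share hosts and the members were picked as a group, so r is a description. Among genes outside the set, the 10 whose log2 CPM was most like the members' mean profile, by Pearson's r over the same 6 glands, were D19Ertd737e (0.992), Gm16364, Rabep1, Ngly1, Cpeb4, C530008M17Rik, Mtm1, Foxo4, 2310040G07Rik and Clasp2 (0.982). Their amplitude was mostly small, with 3 of the 10 over 2-fold between the lowest and the highest gland, and none (0) was past the thresholds between genotypes. Cpeb4, an RNA-binding regulator of translation, for example, ran from 43.3 to 64.2 CPM.

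Other genes of the response, its inhibitors and the pathway upstream were read from 6 lists chosen by known role, also with earlier results known. Of 139 genes tested, 8 were higher and 4 lower past the thresholds of the study, 5.76% and 2.88%, beside the 1.17% and 1.84% of all genes. None (0) passed by adjusted p (edgeR, smallest adjusted p 0.987). Genes past the thresholds are named below for their small unadjusted p, which therefore describes them and is no test of them. The median over the 139 genes was 0.037.

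Among 19 other immediate early transcription factors 3 were higher past the thresholds. Egr2, a relative of Egr1, was at 31.5, 20.5 and 18.5 CPM in WT glands and 50.5, 54.7 and 21.6 CPM in Adamts18-/- glands (edgeR log2 fold change 0.77 with standard error 0.24, unadjusted p = 0.0258). Egr3, of the same family, was at 4.97, 3.56 and 3.14 CPM against 7.09, 5.53 and 6.54 CPM (0.73, standard error 0.17, unadjusted p = 0.00907), and unlike the members its largest difference was in host 3. Csrnp1, a nuclear protein, had a fitted difference of 0.42 (standard error 0.10, unadjusted p = 0.0108). Egr2 was not past the thresholds without host 1 or without host 2, nor was Csrnp1 without host 2. The list had a median of 0.14, and 13 of the 19 genes had a positive fitted value.

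Of 31 feedback regulators, 4 were higher past the thresholds: Rgs2, which limits signaling by G proteins (0.40, standard error 0.072, unadjusted p = 0.00311), Tnfaip3, an inhibitor of NF-κB (0.42, standard error 0.082, unadjusted p = 0.00457), Btg2, an antiproliferative gene (0.46, standard error 0.095, unadjusted p = 0.00535), and Nfkbiz, a nuclear IκB protein (0.37, standard error 0.14, unadjusted p = 0.0443). Rgs2, Tnfaip3 and Btg2 differed by 0.47, 0.45 and 0.54 in host 3, where 5 members were lower, and Nfkbiz by 0.018. Rgs2 was at 34.6, 29.5 and 28.6 CPM in WT glands and 43.6, 39.2 and 39.6 CPM in Adamts18-/- glands, groups that did not overlap, as for 4.94% of all genes. The median of the list was -0.0099, which is near that of all genes. Nfkbiz was not past the thresholds without host 1 or without host 2, nor with library size or upper quartile scaling.

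Of the other AP-1 and related bZIP factors 0 of 16 passed in either direction, where 1.17% of all genes were higher and 1.84% lower, with a median of -0.048 (0.39 with pan-epithelial scaling, below the shift of all genes). Fosl2, the Fos-related subunit with the higher level, lay between 84.2 and 133 CPM in WT glands and between 69.0 and 159 CPM in Adamts18-/- glands, with a fitted difference of 0.052 (standard error 0.14) and differences by host of 0.069, 0.37 and -0.29, and Atf4, the effector of the integrated stress response, had 0.14 (standard error 0.087). Of the 40 upstream kinases and factors 0 passed, with a median of 0.026. Rps6ka3, the kinase RSK2, had a fitted difference of 0.11 (standard error 0.081). Both glands of host 3 lay below the other 4 for 9 of the 16 bZIP factors and 15 of the 40 upstream genes, against 24.1% of all genes.

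Among 21 induced secreted and surface proteins, the chemokine gene Cxcl2 was higher and Ctgf lower past the thresholds. The list had a median of 0.18, and 13 of the 21 genes had a positive fitted value. Cxcl2 was at 2.90, 0.555 and 0.408 CPM in WT glands and 6.83, 4.97 and 0.960 CPM in Adamts18-/- glands, a fitted difference of 1.86 (standard error 0.47, unadjusted p = 0.0119), with the largest difference in host 2. For Ctgf the fitted difference was -0.46 (standard error 0.088, unadjusted p = 0.00420). Of 12 heat shock genes, listed as induced by tissue dissociation, 3 were lower past the thresholds, against 1.84% of all genes. They were the inducible chaperones Hspa1b (edgeR log2 fold change -0.54, standard error 0.11, unadjusted p = 0.00578), Hspa1a (-0.46, standard error 0.12, unadjusted p = 0.0156) and Hspb1 (-0.36, standard error 0.12, unadjusted p = 0.0337). The median of the list was 0.030, and 8 of the 12 had a positive fitted value. Effects of tissue handling were not tested. Under pan-epithelial scaling Hspb1 was at 0.071 and none of the 3, nor Ctgf, passed, and relative to all genes Hspa1b remained at -0.54 and Hspb1 at -0.36. Hspa1a was not past the thresholds without host 1, nor was Hspb1 without host 2 or without host 3. Without the host as a block, Egr2, Nfkbiz, Cxcl2, Ctgf, Hspa1a, Hspa1b and Hspb1 were not past them.

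**Figure D4:**
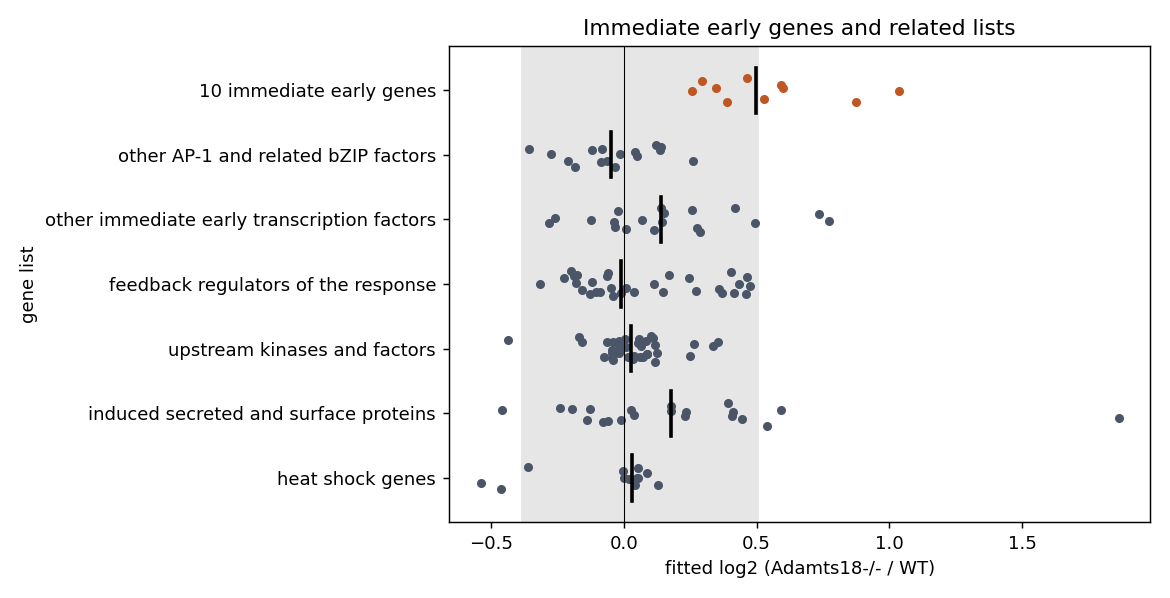
Fitted log2 fold change of Adamts18-/- over WT for each gene of 7 groups, with the median of a group as a black bar and the 5th to 95th percentile of all genes in grey. The members have a median of 0.50, and the medians of the 6 other lists lie between -0.048 and 0.18.

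Markers of other cell types were read in the same glands. The 8 skeletal muscle markers, all tested and none at 0 in every gland, summed to 280, 818 and 2704 CPM in the WT glands of hosts 1, 2 and 3 and to 10705, 10564 and 1830 CPM in the Adamts18-/- glands, which is 38.3-fold, 12.9-fold and 0.677-fold. Like the summed level of the members, they were higher in the mutant glands of hosts 1 and 2 and not in host 3. None (0 of 8) passed the thresholds, where 1.17% of all genes were higher and 1.84% lower. Myh4, a fast myosin and the most abundant of them, ran from 94.7 to 1197 CPM in WT and from 821 to 4972 CPM in Adamts18-/- glands. Among WT glands, the one of host 1 had the highest immediate early level and the lowest muscle level. The 25 pan-epithelial markers, none at 0 in every gland, each had a negative fitted value and summed to 1805 to 2667 CPM in WT and 1357 to 1873 CPM in Adamts18-/- glands, which by host is 0.973-fold, 0.594-fold and 0.702-fold, with 6 lower past the thresholds, the most abundant being Krt19 (-0.62, standard error 0.11). Of the 9 basal markers 8 were lower past the thresholds, and of the 11 luminal ones 4. For these epithelial lists the share over all genes was 1.84%. By host the summed basal markers were at 0.806-fold, 0.709-fold and 0.656-fold, and the luminal ones at 0.979-fold, 0.664-fold and 0.725-fold. Between hosts, the sum of the 8 adipocyte markers, led by Cfd, was lower in host 3 (10024 and 7782 CPM) than in the other 4 glands (16116 to 19228 CPM). Both glands of host 3 lay below the other 4 for 7 of the 8, against 24.1% of all genes. The sum of the 8 endothelial markers was lower there too (773 and 655 CPM, against 867 to 1075 CPM, with 6 of the 8 below). The sum of the 12 leukocyte markers was higher there (4164 and 5665 CPM, against 2248 to 3210 CPM). The part of all these cell types, skeletal muscle included, in the levels of the immediate early genes was not tested.

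**Figure D5:**
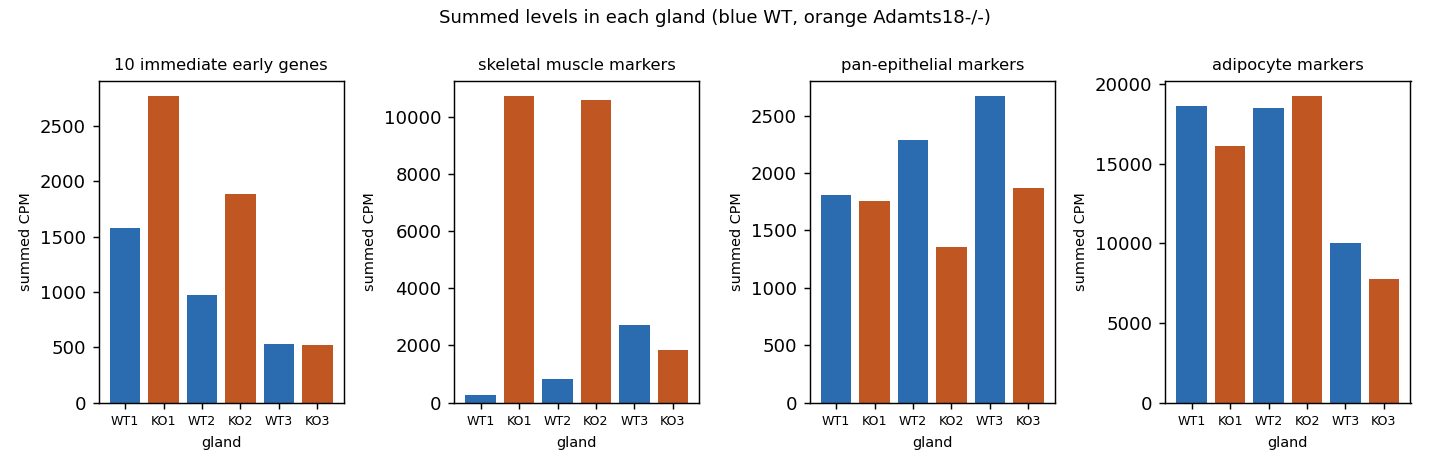
Summed CPM of the 10 members and of 3 marker lists in each gland (bars, blue for WT and orange for Adamts18-/-, which is marked KO on the axis, with the host number), each panel with its own axis from 0. The members and the skeletal muscle markers are higher in the Adamts18-/- gland of hosts 1 and 2, at 2769 and 1888 CPM for the members, and the adipocyte markers are lowest in host 3.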

How the data were processed

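RNA from 6 glands was sequenced with single-end reads on an Illumina NextSeq. The table deposited by the authors holds raw counts, whole numbers with 1 row for each gene symbol and 1 column for each gland. The submitters' processing notes name bcl2fastq 2.18, TopHat2 2.0.11, featureCounts 1.6.2 and edgeR, and the build mm9. Positions, exon lengths and promoters are those of GRCm38, which is another build, and were matched by symbol. The annotation and strand setting of the counting are not given in the sources used here.

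Differences were fitted with edgeR 4.0.16 under R 4.3.3 (its filter on low counts, TMM scaling, quasi-likelihood test), with the host as a block as in the design of the study, which compared contralateral glands, and Benjamini-Hochberg adjustment over the 17345 genes kept. The standard error is the log2 fold change divided by the square root of F. CPM used the TMM factors, and log2 CPM a prior count of 2. The host numbers come from the sample titles, and deviations from the group means correlated between the glands of hosts 1, 2 and 3 at 0.512, 0.505 and 0.639 across genes. No libraries were near-identical (chi-square per degree of freedom of at least 34.1 between any pair). Total counts per gland were 53875123 to 71595924. The p-values and standard errors rest on the spread between 3 pairs, which edgeR moderates with that of other genes. The fit was tested on simulated data. The alternatives were other scalings, filters and thresholds, DESeq2 1.42.0, limma-voom 3.58.1, no block, and each host left out. The members, the lists and these alternatives were chosen with earlier results of these data known. Genes named are the members, up to 4 genes of a list past the thresholds by p or, where fewer than 2 pass, its 2 most abundant genes, the most abundant marker of a cell type, and the 10 genes most like the members. Jund, and genes overlapping a member, were named after their values or positions were seen. A gene of the upstream list that this rule names is not reported here.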

Additional observations from a re-analysis of the deposited data

How the results depend on the processing

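All 10 members kept a positive fitted log2 fold change under the alternatives tried, except Fosb (-0.033) and Dusp1 (-0.0067) without host 2. With each host left out in turn, the median of the members lay between 0.34 and 0.71, the number past the thresholds between 1 and 10 (0 past the lower ones each time), genes called lower in the table between 214 and 481 and higher between 182 and 581, list genes called lower between 3 and 5 and higher between 6 and 16, and genes called between hosts between 12 and 48. With pan-epithelial scaling, 32 genes were called lower and 1964 higher, 9 members and 29 list genes higher and 0 list genes lower, with a median of 0.93 for the members, 0.43 of it the shift of all genes. Without the replicate block, 125 genes were called lower, and 0 members, 5 list genes higher and 0 list genes lower. Genes called higher numbered 352 with no filter, 340 with DESeq2 and 345 with limma-voom. By adjusted p, 0 were lower and 0 higher. The causes were not tested. Of the other values, 179 differed from the main value by less than the spread between hosts and 13 by more. That spread is a wide measure, and fits without a host share pairs with the main fit, so the 179 are no sign of stability. Fosb, at 0.87 in the main fit and -0.033 without host 2, counted among them. With 3 pairs, differences such as that of Fosb, with a standard error of 0.75, cannot be told from 0.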
